A study of Mus musculus with 4 samples.

Results

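Astrocytes of the mouse hippocampus were chosen by their expression. They were the barcodes that carried astrocyte transcripts and stayed under limits on genes of excitatory neurons, oligodendrocyte precursors, endothelial cells and oligodendrocytes. No limit was set on genes of microglia, ependymal cells or choroid plexus. A barcode with at least 650 detected genes was kept, and a kept cell was counted as an astrocyte when the transporter gene *Slc1a2*, the water channel gene *Aqp4*, the neurotensin receptor gene *Ntsr2* and the connexin gene *Gjb6* summed to at least 25 of its unique molecular identifiers (UMIs, 1 for each captured RNA molecule) per 10000. At least 1 UMI had to come from *Aqp4*, *Ntsr2* or *Gjb6*. Cells were left out where, per 10000 UMIs, the excitatory neuron gene *Slc17a7* reached 4, the precursor genes *Pdgfra*, *Lhfpl3*, *C1ql1* and *Vcan* together 12, the endothelial genes *Cldn5*, *Flt1* and *Ly6c1* together 40, or the oligodendrocyte genes *Mog*, *Mag* and *Ermn* together 12. This rule took 437 of 14147 kept cells.

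The cells came from male C57BL/6 mice, 12 weeks old by the sample labels, whose hippocampi were dissociated and run as 1 droplet library per mouse on day 7 after surgery. In the 2VO mice (two-vessel occlusion, a model of transient global cerebral ischemia) both common carotid arteries were clamped for 50 min, and in the sham mice the clamps were removed at once. Of the 4 libraries 3 were analysed, 2VO 1, sham 1 and sham 2. 2VO 2 was not analysed here. With 1 2VO library, the condition and anything particular to that library cannot be told apart.

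Astrocytes clear released glutamate and GABA from the synaptic cleft, buffer potassium and water through channels on the endfeet that wrap vessels, hand lactate to neurons, and make most of the cholesterol of the adult brain. After injury they become reactive: they build up intermediate filament proteins such as GFAP and vimentin, secrete protease inhibitors and chemokines, and can turn on interferon-response genes. The CA1 field of the hippocampus is known for its sensitivity to a brief loss of blood flow.

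Astrocytes were 34 of 3912 kept cells in 2VO 1, 188 of 5109 in sham 1 and 215 of 5126 in sham 2. Those were 0.869% of the cells of 2VO 1 (exact Clopper-Pearson 95% interval 0.603 to 1.21), 3.68% of sham 1 (3.18 to 4.23) and 4.19% of sham 2 (3.66 to 4.78), and the interval of 2VO 1 did not overlap those of the sham libraries. These intervals cover counting error only, and a permutation of 2 libraries against 1 cannot give a p below 1 in 3, so no test was made. The share in 2VO 1 stayed between 0.614% and 1.05% under the other settings of the rule. A share depends on how well each cell type survived dissociation and capture, and this was not measured.

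**Figure D1:**
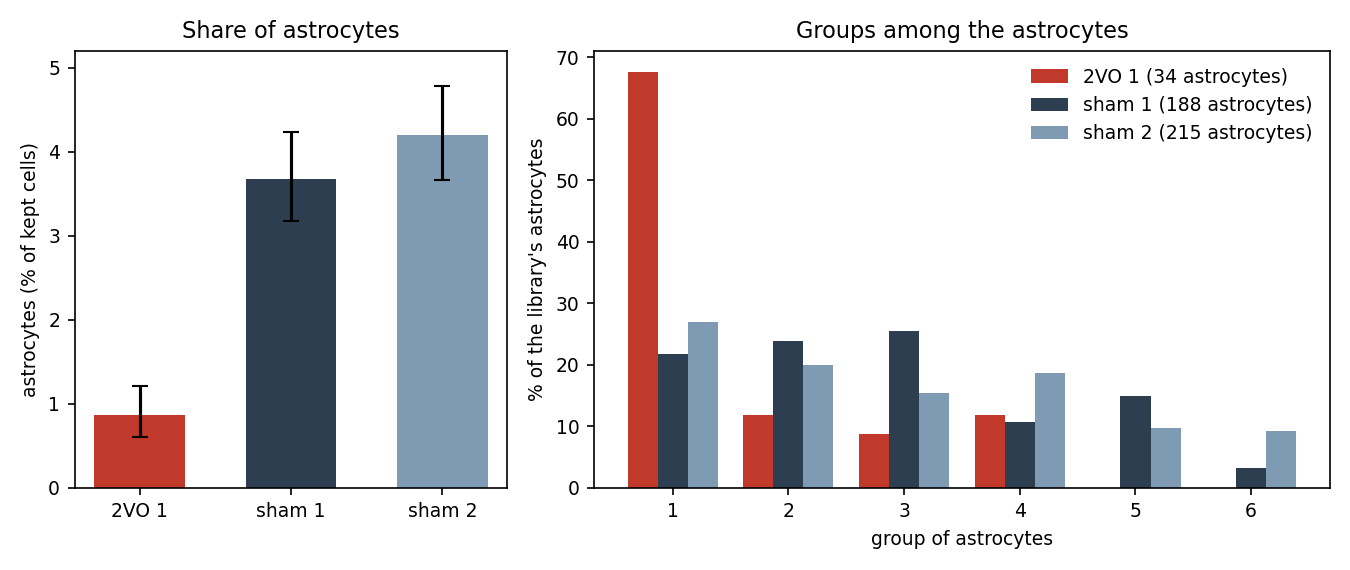
Left: astrocytes as a percentage of kept cells in 2VO 1, sham 1 and sham 2, with exact 95% intervals (0.869%, 3.68% and 4.19%). Right: percentage of each library's astrocytes that fell into the 6 groups found by clustering; 23 of the 34 astrocytes of 2VO 1 were in group 1, against 41 of 188 in sham 1 and 58 of 215 in sham 2.

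The astrocytes held 131762 UMIs in 2VO 1, 1187023 in sham 1 and 1372530 in sham 2. Every value of 2VO 1 therefore rests on far fewer molecules than a sham value. The median per astrocyte was 3504.5 UMIs and 1752 genes in 2VO 1, 4787.5 UMIs and 2219.5 genes in sham 1, and 5433 UMIs and 2272 genes in sham 2. Over all kept cells the medians were 2311, 8191 and 5249 UMIs in 2VO 1, sham 1 and sham 2. The libraries of a pair shared 11 to 21 barcode sequences of 5361 or more. The doublet caller Scrublet marked 1 kept cell of 2VO 1, 102 of sham 1 and 132 of sham 2, of which 0, 3 and 8 were astrocytes. With 1 of 3912 kept cells marked, its calls in 2VO 1 were not relied on. Doublets were left in, and removing the cells with the highest scores was tried as an alternative.

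The genes of the rule are given as a description. Levels are given as CPM, the counts of a gene scaled by the summed astrocyte UMIs of the library. *Slc1a2*, the main glutamate transporter of astrocytes, was at 10238 CPM in 2VO 1, 8861 in sham 1 and 9920 in sham 2. *Aqp4*, the endfoot water channel, was at 1313, 979 and 942 CPM in 2VO 1, sham 1 and sham 2. *Ntsr2* was at 1199, 1030 and 1064 CPM and *Gjb6*, which encodes connexin 30, at 349, 334 and 318 CPM in the same order of libraries. All 4 were highest in 2VO 1. The sum the rule used ran between 25.1 and 514 per 10000 UMIs, with medians of 120 in 2VO 1, 91.6 in sham 1 and 113 in sham 2. Only 12 members, none of 2VO 1, lay just inside the limit of 25 (25.1 to 29.5), and 6 cells, none of 2VO 1, lay just outside it (20.7 to 23.8). Of the genes with an upper limit, the endothelial *Flt1* was at 182, 3.37 and 31.3 CPM in 2VO 1, sham 1 and sham 2. *Cldn5* was at 106, 4.21 and 29.9 CPM and *Ly6c1* at 68.3, 2.53 and 16.03 CPM, and all 3 were highest in 2VO 1. The oligodendrocyte genes *Mog*, *Mag* and *Ermn* reached at most 45.5 CPM, *Slc17a7* at most 20.4 CPM, and the 4 precursor genes at most 30.4 CPM.

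Genes that the rule did not use carried the same label. *Plpp3*, a lipid phosphatase gene typical of astrocytes, was at 3036 CPM in astrocytes of 2VO 1, 2891 of sham 1 and 3085 of sham 2, while precursors, the next type in order, had 409, 414 and 451 CPM. *Slc1a3*, the second glutamate transporter of astrocytes, was at 3233, 3363 and 3633 CPM in astrocytes. *Gfap*, the intermediate filament gene, was at 918, 912 and 760 CPM in astrocytes and at 7.52, 5.53 and 11.0 CPM in all other kept cells of 2VO 1, sham 1 and sham 2. *Gja1* and *Mlc1* were shared with ependymal cells: *Mlc1*, which encodes an endfoot membrane protein, was at 539, 676 and 512 CPM in astrocytes and at 681, 771 and 519 CPM in ependymal cells of the 3 libraries, although 2VO 1 held only 8 ependymal cells.

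Of the genes with at least 50 CPM in the astrocytes of every library, the myocilin gene *Myoc* had the largest fold over all other kept cells (143-fold with 1 CPM added), followed by the acyl-CoA synthetase gene *Acsbg1* (138-fold), the NMDA receptor subunit gene *Grin2c* (131-fold), the claudin gene *Cldn10* and the glucocorticoid-activating enzyme gene *Hsd11b1* (both 122-fold). *Slc4a4*, the sodium bicarbonate cotransporter gene, *Aldoc*, the brain aldolase gene, *Gfap*, the GABA transporter gene *Slc6a11* and *2900052N01Rik* came next at 113-fold, 102-fold, 97.8-fold, 91.1-fold and 82.7-fold. The angiotensinogen gene *Agt*, the chemokine gene *Cxcl14*, the receptor gene *Fgfr3*, *Gja1* and the scavenger receptor gene *Scara3* stood between 78.7-fold and 61.8-fold. These folds describe the cells the rule selected and were not tested.

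**Figure D2:**
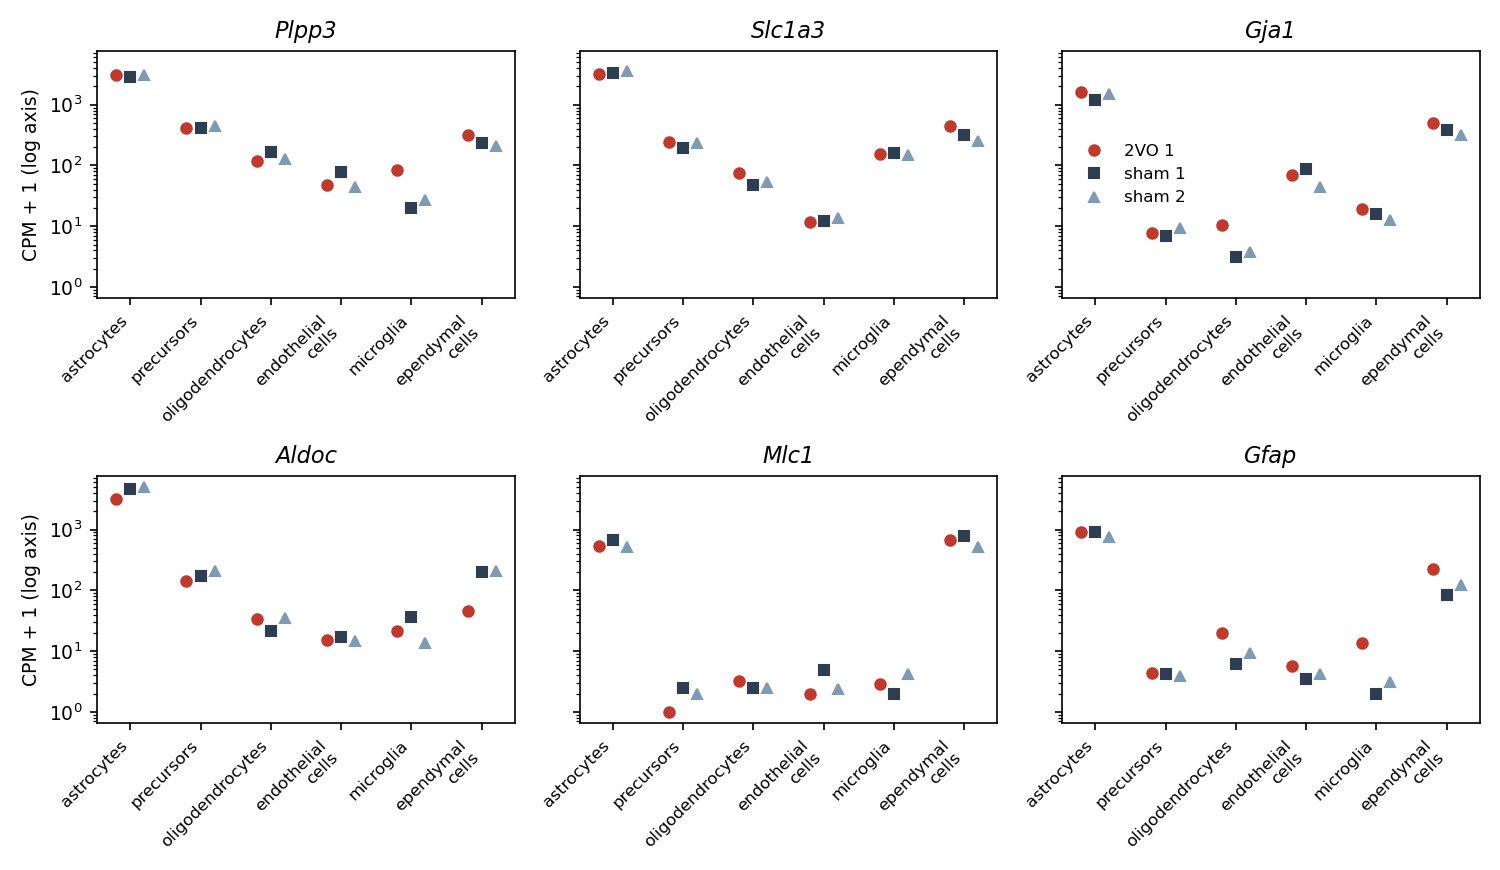
Levels (CPM + 1, log axis) of 6 astrocyte genes outside the rule in astrocytes and 5 other gated cell types, 1 point per library. Astrocytes were highest for Plpp3, Slc1a3, Gja1, Aldoc and Gfap, whereas Mlc1 was as high in ependymal cells (681, 771 and 519 CPM against 539, 676 and 512 CPM in astrocytes).

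Transcripts of other cell types were present and not evenly over the libraries. The 10 microglial markers summed to 1032 CPM in the astrocytes of 2VO 1, 45.5 in sham 1 and 364 in sham 2, with *Cx3cr1* at 0 in sham 1. The 7 endothelial markers summed to 630, 75.8 and 219 CPM and the 10 oligodendrocyte markers to 1480, 732 and 497 CPM, with no marker at 0 in any library. Both sums were highest in 2VO 1. Red blood cell markers summed to 402, 2.53 and 758 CPM (*Hba-a2* and *Hbb-bt* at 0 in sham 1), and in sham 2 a single cell held 432 of the 440 *Hba-a1* UMIs. Choroid plexus markers summed to 5161, 17113 and 1113 CPM, in sham 1 more than the 14095 CPM of the 5 astrocyte markers, and 2 sham 1 cells held 17802 of the 20210 *Ttr* UMIs of that library. Neuronal markers stayed at 45.5, 48.0 and 162 CPM, with *Gad2*, *Slc17a7* and *Slc32a1* at 0 in 2VO 1. The 5 macrophage markers summed to 45.5 CPM in 2VO 1, 0 in sham 1 and 0.729 in sham 2, highest in 2VO 1. Of these *Pf4*, *Mrc1* and *Cd163* were at 0 in all 3 libraries.

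Clustering split the 437 astrocytes into 6 groups, whose leading genes and makeup are descriptive. Group 1 held 122 cells with a median of 2617 UMIs and was led by noncoding and nuclear transcripts: *Gm26870* (40.6-fold over the other astrocytes), *Gm10800*, *Gm26917*, *Neat1* (6.55-fold) and *Kcnq1ot1*, with *Lars2* after them. Group 4, with 64 cells, was led by *Myoc* (12.2-fold), *Sulf2* and *Serpinf1* and had 1756 CPM of *Gfap*. Group 3, with 84 cells, had 100 CPM of *Gfap* and was led by *Pde10a* and *Angptl4*. Group 2, with 92 cells, was led by *Spint2*, *Ttr*, *Ptgds* and *Vtn*, which are known from choroid plexus, meninges and pericytes. Group 6, with 26 cells, was led by the neuronal genes *Camk2a* and *Ddn*, and group 5, with 49 cells, had the lowest depth (median 1460 UMIs) and little *Malat1* (1693 CPM against 107060 CPM in group 1). *Slc1a2* was between 5596 CPM (group 3) and 12905 CPM (group 5). Of the 34 astrocytes of 2VO 1, 23 were in group 1, 4 in group 2, 3 in group 3, 4 in group 4 and none in groups 5 and 6. Group 1 held 41 of 188 in sham 1 and 58 of 215 in sham 2. *Neat1*, one of the genes that lead group 1, also differed in level between the libraries, so this makeup says where the cells fell and does not compare cell types. Since most 2VO 1 astrocytes were in group 1, the gene lists were also summed and the test repeated in group 1 alone and outside it, a split chosen after seeing the data.

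To ask what differed in astrocytes after ischemia, the counts were summed per library and 2VO 1 was compared with sham 1 and sham 2 with the quasi-likelihood test of edgeR. The test leaves 1 residual degree of freedom and takes the spread of the sham libraries as that of the 2VO library as well. Of 10278 genes tested, 0 (0.0%) passed an adjusted p of 0.05 with a fold over 1.5. At an unadjusted p under 0.05 there were 1223 genes, of which 456 were higher (4.44%) and 767 lower (7.46%) in 2VO 1, and DESeq2 called 2 higher (*Neat1* and *Ctsd*) and 4 lower (*Dbi*, *Fabp7*, *Cox7c* and *Rps2*). 2VO 1 lay above both sham libraries in 3956 genes (38.5%) and below both in 4808 (46.8%), and the median log2 fold change over all genes was −0.11. These shares are the background for every count of genes given next. The levels that follow are CPM scaled by the trimmed mean of M values (TMM), log2 fold changes are 2VO 1 over sham with their standard error (SE), and adjusted p are Benjamini-Hochberg values of the edgeR test over all 10278 genes.

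Among the genes known to mark reactive astrocytes in general, 13 of 16 were tested, 10 were above both sham libraries, 1 was below both, and 7 had an unadjusted p under 0.05 and were higher (median log2 fold change 1.64). The filter on low counts admits a gene through 2VO 1 alone, where a high gene then had to differ, and 1 of the 13, *Cxcl10*, entered so. Without the filter 11 of the 16 genes were above both and 1 below both, with a median of 1.08. Of all genes with a UMI 34.6% were above both and 42.2% below both. On the scale without TMM factors 12 of the 13 were above both in astrocytes and in oligodendrocytes. In precursors, endothelial cells and microglia 10 of the 13 were, with at most 1 below both in each type. In 2VO 1, sham 1 and sham 2 they summed to 2262, 1370 and 1150 CPM in astrocytes. In oligodendrocytes they summed to 547, 149 and 186 CPM, and in microglia to 926, 1168 and 449 CPM. *Serpina3n* (chr12:104406729-104414329, plus strand), which encodes a secreted serine protease inhibitor, was at 347 CPM in 2VO 1, 14.6 in sham 1 and 10.9 in sham 2. Its log2 fold change was 4.76 (SE 0.31, adjusted p = 0.0679 by edgeR), the smallest p of all genes. The 48 *Serpina3n* UMIs of 2VO 1 came from 5 of its 34 astrocytes, 33 of them from 1 cell, whereas the 17 and 14 UMIs of sham 1 and sham 2 were spread over 12 cells each. In 2VO 1 the level was therefore high in few cells. *Cd44*, the hyaluronan receptor gene, was at 86.9, 7.71 and 11.7 CPM in 2VO 1, sham 1 and sham 2 (log2 fold change 3.13), from 12 UMIs in 3 cells of 2VO 1. *Osmr*, the oncostatin M receptor gene, was at 72.4, 12.8 and 15.6 CPM (2.33), *Aspg*, the asparaginase gene, at 50.7, 11.1 and 10.9 CPM (2.18), and the chemokine gene *Cxcl10* at 79.6, 0.856 and 2.34 CPM (5.49), from 11 UMIs in 2 cells of 2VO 1. *Vim* was at 326, 230 and 206 CPM (0.58). *Gfap* itself (chr11:102887336-102900912, minus strand) was at 876 CPM in 2VO 1, 928 in sham 1 and 815 in sham 2, between the sham libraries, with a log2 fold change of 0.01 (SE 0.20, adjusted p = 0.996 by edgeR).

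The split by group gave other values for this list. In group 1 the 13 genes summed to 3212 CPM (not TMM-scaled) in 2VO 1, 292 in sham 1 and 732 in sham 2, and 11 of 13 were above both. Outside group 1 they summed to 1098, 1483 and 1221 CPM. All 48 *Serpina3n* UMIs of 2VO 1 were in group 1, which held 0 and 4 in sham 1 and sham 2, while outside it the counts were 0, 17 and 10. *Gfap* had 85, 21 and 72 UMIs in group 1 (1172, 186 and 363 CPM, in 16 of 23, 8 of 41 and 23 of 58 cells), and a fit to group 1 alone gave a log2 fold change of 1.94 (adjusted p = 0.0136 by edgeR). Outside group 1 *Gfap* was at 608, 989 and 827 CPM, with a log2 fold change of −0.75 (adjusted p = 0.483 by edgeR). Over all settings with a test the adjusted p of *Gfap* ran between 0.0136 and 0.996, and the only call was in group 1. *Vim* had 28, 1 and 10 UMIs in group 1 (386, 8.85 and 50.5 CPM in 2VO 1, sham 1 and sham 2), with a log2 fold change of 3.34 and an adjusted p of 4.6e-05 by edgeR there, against 0.942 outside group 1, the ends of its range. The fit to group 1 called 8 of 2848 genes, all higher: beside *Serpina3n*, *Fosb*, *Vim* and *Gfap* they included *Ptgds*, *Hbb-bs* and *Flt1*, which are known from meninges, red blood cells and endothelium. In group 1 of 2VO 1 a single cell held 33 of the 85 *Gfap* UMIs. For *Vim* a single cell held 12 of the 28 UMIs there, and 9 of 23 cells had any. The clustering used the expression of these same astrocytes, and the part of the groups or of other cell types in the difference was not tested.

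Of the genes known from inflammation-induced astrocyte reactivity 7 of 13 were tested, and 5 were above both sham libraries and 0 below (median 1.18). One of them, *Gbp2*, passed the filter through 2VO 1 alone. Without the filter 10 of 13 were above both and 0 below both (34.6% and 42.2% of all genes). In group 1 the 7 genes summed to 772 CPM (not TMM-scaled) in 2VO 1, 133 in sham 1 and 273 in sham 2. There 6 were above both and 0 below both. Outside group 1 they summed to 304, 146 and 261 CPM, with 3 above both and 4 below both. In oligodendrocytes they summed to 835, 128 and 161 CPM, with 7 above both. *C4b* (chr17:34728380-34743882, minus strand), the complement component gene, was at 311 CPM in 2VO 1, 96.8 in sham 1 and 177 in sham 2 (log2 fold change 1.18, SE 0.44, adjusted p = 0.398 by edgeR), from 43, 113 and 227 UMIs in 17 of 34, 46 of 188 and 76 of 215 cells. As a ratio, sham 2 stood about as far above sham 1 as 2VO 1 above sham 2. The guanylate-binding protein gene *Gbp2* had 6, 4 and 5 UMIs (43.4, 3.43 and 3.91 CPM) and *Ggta1*, a galactosyltransferase gene, 6, 12 and 14 UMIs (43.4, 10.3 and 10.9 CPM). Of 12 genes known from ischemia-induced reactivity only *S100a10* and *Tm4sf1* were tested: *S100a10* was at 65.1, 119 and 158 CPM (log2 fold change −1.09) and *Tm4sf1* at 36.2, 12.0 and 13.3 CPM (1.51) in 2VO 1, sham 1 and sham 2.

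All 14 tested of 22 interferon-response and MHC class I genes were above both sham libraries, where 38.5% of all genes were. At an unadjusted p under 0.05 there were 8 higher, where 4.44% of all genes were (median log2 fold change 1.19). Since 2 of the 14 passed the filter on low counts through 2VO 1 alone, the count of 14 is partly set by it. Without the filter 19 of 22 were above both and 1 below both, where 34.6% and 42.2% of all genes with a UMI were. After thinning to 1000 UMIs per cell 5 were tested, with a median of 0.69 and 0 at an unadjusted p under 0.05. *Bst2*, which encodes the membrane protein tetherin, was at 86.9 CPM in 2VO 1, 17.1 in sham 1 and 20.3 in sham 2 (log2 fold change 2.20, SE 0.44, adjusted p = 0.363 by edgeR). *B2m*, the light chain of MHC class I, was at 246, 85.6 and 109 CPM (1.33, SE 0.29), and its log2 fold change was 0.020 after thinning. *Ifit3*, an interferon-induced RNA-binding protein gene, was at 72.4, 18.8 and 10.9 CPM (2.28). *Isg15*, a ubiquitin-like modifier gene, had 7 UMIs in 2VO 1, 0 in sham 1 and 8 in sham 2. 2VO 1 was above both sham libraries for each of these genes, though *Isg15* rests on few UMIs. The list summed to 1313, 509 and 595 CPM (not TMM-scaled) in astrocytes of 2VO 1, sham 1 and sham 2 and to 6319, 2908 and 2665 CPM in microglia, and the microglial markers named before were also highest in the astrocytes of 2VO 1. Within group 1 the list summed to 1668, 230 and 404 CPM with 13 of 14 genes above both. Outside group 1 it summed to 878, 538 and 628 CPM, with 7 above both and 4 below both. There *B2m* alone was at 304, 91.2 and 108 CPM, and the fit outside group 1 gave a median of 0.08 with 7 of 13 tested genes above 0.

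Interferon-response genes carry an element that interferon regulatory factors and STAT complexes are known to bind, and GAAA followed by any 2 bases and GAAA again was searched for on both strands of the 250 bases before each gene's start (RefSeq, GRCm38.p6). It occurred in 936 of 27025 genes (3.46%) and in 6 of the 12 tested list genes that matched a promoter, namely *B2m*, *Bst2*, *Ifit3*, *Ifit3b*, *Isg15* and *Stat2*. The stretches upstream of 3 of them and of *Cxcl10*, which is not on this list, are shown with the match in capitals. They are written 5′ to 3′ on the gene's strand and are examples, not a ranking by fold. They lie at chr19:34583373-34583528 (*Ifit3*, plus strand), chr8:71537473-71537622 (*Bst2*, minus strand), chr2:122147537-122147686 (*B2m*, plus strand) and chr5:92348890-92349102 (*Cxcl10*, minus strand).
Ifit3: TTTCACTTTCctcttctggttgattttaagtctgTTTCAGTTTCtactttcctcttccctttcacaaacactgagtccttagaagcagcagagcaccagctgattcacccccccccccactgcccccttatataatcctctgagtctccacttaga
Bst2: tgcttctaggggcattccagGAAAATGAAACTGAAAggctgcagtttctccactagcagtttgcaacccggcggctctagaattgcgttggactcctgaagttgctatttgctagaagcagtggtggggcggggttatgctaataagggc
B2m: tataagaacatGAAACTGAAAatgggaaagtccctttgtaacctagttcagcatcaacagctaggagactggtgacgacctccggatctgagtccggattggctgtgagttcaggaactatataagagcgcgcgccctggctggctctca
Cxcl10: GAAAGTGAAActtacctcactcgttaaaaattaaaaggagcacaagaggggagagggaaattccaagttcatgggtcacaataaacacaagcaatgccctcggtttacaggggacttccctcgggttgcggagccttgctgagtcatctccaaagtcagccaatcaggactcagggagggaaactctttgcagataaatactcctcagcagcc
*Ifit3* held the pattern on the other strand at 2 places, *Bst2* held 2 overlapping matches, and *B2m* and *Cxcl10* held 1 each. Of the 13 tested pan-reactive genes with a promoter in the table, *Cxcl10* alone held this pattern, and none held TTCNNNGAA, the letters of a STAT element, which occurred in 2197 of all genes (8.13%). A match of letters is a description of the sequence and not a bound site.

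Immediate early genes answer growth factor and stress signals and also cell dissociation. Of these, 16 of 25 tested were above both sham libraries and 6 below both, where 38.5% and 46.8% of all genes were. At an unadjusted p under 0.05 there were 5 higher (median 0.71, or 0.79 with the genes at 0 UMIs in 2VO 1 placed at the bound of 3 UMIs or left out). The filter on low counts admitted 1 of the 25 through 2VO 1 alone. Without the filter 17 of 26 were above both and 6 below both, where 34.6% and 42.2% of all genes with a UMI were. *Fosb*, an AP-1 transcription factor gene, was at 181 CPM in 2VO 1, 2.57 in sham 1 and 9.38 in sham 2 (log2 fold change 4.86, SE 0.62, adjusted p = 0.363 by edgeR). It was seen in 10 of 34, 2 of 188 and 6 of 215 astrocytes, a wider spread over cells than that of *Serpina3n*. *Sgk1*, a kinase gene induced by glucocorticoids, was at 109, 12.0 and 15.6 CPM (2.96), in 11 of 34, 6 of 188 and 10 of 215 cells. In group 1 the list summed to 3708, 921 and 1322 CPM and outside it to 1199, 1509 and 1731 CPM in 2VO 1, sham 1 and sham 2, so that 2VO 1 was highest in group 1 and lowest outside it.

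**Figure D3:**
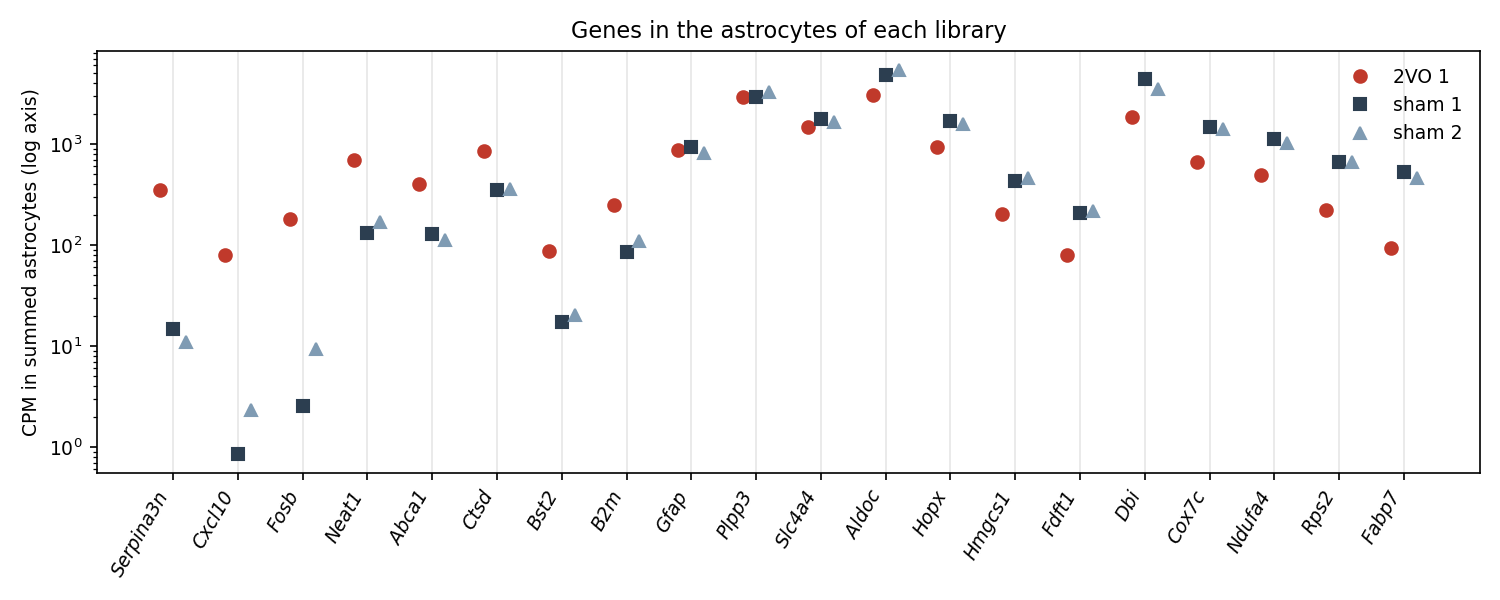
TMM-scaled CPM (log axis) of 20 genes in the summed astrocytes of 2VO 1, sham 1 and sham 2, 1 point per library. Serpina3n, Cxcl10, Fosb, Neat1, Abca1, Ctsd, Bst2 and B2m stood above both sham libraries in 2VO 1, Gfap stood between them, and the 11 genes to its right stood below both.

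Other genes with small p above both sham libraries were *Neat1*, *Abca1*, *Ctsd* and *Ccnl1*. *Neat1* (chr19:5824708-5845478, minus strand), a nuclear noncoding RNA that forms paraspeckles, was at 702 CPM in 2VO 1, 130 in sham 1 and 170 in sham 2 (log2 fold change 2.23, SE 0.24, adjusted p = 0.363 by edgeR). It was seen in 23 of 34, 72 of 188 and 101 of 215 cells. It also led group 1. It was at 1158, 496 and 525 CPM in group 1 and 220, 89.4 and 96.2 CPM outside it. On both sides 2VO 1 was highest. With cells thinned to an equal depth, *Neat1* was found in 44.1%, 15.4% and 16.3% of astrocytes of 2VO 1, sham 1 and sham 2. The shares were 64.2%, 4.51% and 19.8% in oligodendrocytes, 41.2%, 15.7% and 16.9% in endothelial cells and 29.9%, 11.4% and 9.0% in microglia. They were thus highest in 2VO 1 in each of these types, and a difference in these shares between the types was not tested. *Abca1*, which exports cholesterol onto lipoproteins, was at 398, 128 and 111 CPM (1.74, SE 0.23), with 565, 204 and 187 CPM in group 1 and 236, 117 and 89.4 CPM outside. *Ctsd*, the lysosomal protease cathepsin D gene, was at 847, 350 and 359 CPM (1.26, SE 0.18), with 1020, 381 and 333 CPM in group 1 and 726, 341 and 335 CPM outside. *Ccnl1*, a cyclin gene linked to splicing, was at 174, 55.7 and 57.8 CPM (1.61). Of 11 tested nuclear noncoding RNAs 6 were above both and 4 below both. *Pantr1* was at 355, 617 and 614 CPM in 2VO 1, sham 1 and sham 2 (−0.79).

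Genes of cholesterol synthesis, which turns acetyl-CoA into sterol, lay mostly below sham in 2VO 1. Of 23 genes 19 were below both sham libraries and 0 above both, where 46.8% of all genes were below both. At an unadjusted p under 0.05 there were 10 lower, where 7.46% of all genes were (median −0.83). *Hmgcs1*, which makes the first committed intermediate, was at 203 CPM in 2VO 1, 431 in sham 1 and 465 in sham 2 (log2 fold change −1.14, SE 0.24, adjusted p = 0.363 by edgeR). *Fdft1*, squalene synthase, was at 79.6, 209 and 219 CPM (−1.42, SE 0.31), and *Msmo1*, a sterol oxidase acting later, at 420, 728 and 779 CPM (−0.84). For all 3 the sham libraries lay close together. The list summed to 1668, 3232 and 4229 CPM in group 1 (19 of 23 below both) and to 2736, 3529 and 3606 CPM outside it (14 of 23 below both), so it was lowest in 2VO 1 on both sides of the split. In other types of the same libraries it summed to 1600, 3638 and 2158 CPM in oligodendrocytes and to 627, 516 and 600 CPM in endothelial cells of 2VO 1, sham 1 and sham 2.

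Genes of this pathway are known targets of SREBP-2, which works together with NF-Y. The sterol element letters TCACNCCAC occurred on either strand in the 250 upstream bases of 331 of 27025 genes (1.22%) and in 1 of 17 tested list genes with a promoter in the table, *Hmgcs1*. CCAAT, the letters NF-Y binds, occurred in 10133 genes (37.5%) and in 16 of the 17. The *Hmgcs1* stretch (chr13:119690201-119690350, plus strand) is shown with the sterol element letters in capitals.
Hmgcs1: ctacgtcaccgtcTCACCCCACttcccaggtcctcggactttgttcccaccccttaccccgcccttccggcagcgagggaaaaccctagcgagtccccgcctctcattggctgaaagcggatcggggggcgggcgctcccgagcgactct

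Of 23 tested lipid carriers and fatty acid genes 17 were below both sham libraries and 4 above both (median −0.30). *Fabp7* (chr10:57784881-57788450, plus strand), the fatty acid binding protein of radial glia and astrocytes, was at 94.1 CPM in 2VO 1, 523 in sham 1 and 456 in sham 2 (log2 fold change −2.38, SE 0.30, adjusted p = 0.363 by edgeR), from 13, 611 and 583 UMIs in 7 of 34, 120 of 188 and 115 of 215 cells. In group 1 it was at 82.7, 79.7 and 162 CPM and outside it at 118, 560 and 469 CPM. Outside group 1 there were 11 astrocytes of 2VO 1 against 147 of sham 1 and 157 of sham 2. Those of sham included groups 5 and 6, which held none of 2VO 1. The *Fabp7* UMIs outside group 1 were 7 in 2VO 1, 602 in sham 1 and 551 in sham 2. A fit to the cells outside group 1 gave a log2 fold change of −2.29 (adjusted p = 0.0077 by edgeR, within a range of 6.0e-10 to 0.957 over all settings with a test). *Dbi*, the acyl-CoA binding protein gene, was at 1846, 4372 and 3544 CPM (−1.10, SE 0.23). It was at 1254, 620 and 974 CPM in group 1 and at 2769, 4688 and 3698 CPM outside it. *Dbi* was thus highest in 2VO 1 within group 1 and lowest in 2VO 1 outside it.

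Glycolysis, lactate and glycogen genes were below both sham libraries in 20 of 26 and above both in 3, and 11 had an unadjusted p under 0.05 and were lower (median −0.51). *Mpc1*, a subunit of the mitochondrial pyruvate carrier, was at 268 CPM in 2VO 1, 606 in sham 1 and 553 in sham 2 (−1.11), *Pgam1*, phosphoglycerate mutase, at 138, 293 and 287 CPM (−1.07) and *Aldoc* at 3084, 4770 and 5413 CPM (−0.72). The list summed to 5955, 5976 and 7348 CPM in group 1 and to 12969, 13406 and 14066 CPM outside it, differences of the order of those between the sham libraries.

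Nuclear genes of the respiratory chain, whose protein complexes make ATP in mitochondria, lay below sham in 2VO 1 with few exceptions. All 11 cytochrome c oxidase subunits were below both sham libraries and 9 had an unadjusted p under 0.05 (median −0.98). All 37 complex I subunits were below both, 22 of them at an unadjusted p under 0.05 (median −0.74). Of 25 complex III and ATP synthase genes 23 were below both and 19 had an unadjusted p under 0.05 (median −0.74). Of all genes 46.8% were below both and 7.46% were lower at that p. Without TMM factors 11 of 11, 35 of 37 and 23 of 25 of these lists were below both. *Cox7c* was at 659 CPM in 2VO 1, 1459 in sham 1 and 1419 in sham 2 (log2 fold change −1.13, SE 0.20, adjusted p = 0.363 by edgeR). *Cox5a* was at 224, 576 and 477 CPM (−1.23, SE 0.26), *Cox5b* at 376, 718 and 786 CPM (−0.998, SE 0.21), *Cox6c* at 637, 1295 and 1221 CPM (−0.98, SE 0.20) and *Cox8a* at 1390, 2288 and 2239 CPM (−0.70, SE 0.19), each with an adjusted p of 0.363. Of the complex I subunit genes, *Ndufa2* was at 224, 537 and 516 CPM (−1.23) and *Ndufa4* at 492, 1132 and 1017 CPM (−1.13), and of the ATP synthase genes *Atp5b* was at 333, 612 and 632 CPM (−0.90).

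These differences were smaller inside the groups. The cytochrome c oxidase subunits summed to 2399 CPM in 2VO 1, 2143 in sham 1 and 2609 in sham 2 within group 1, between the sham libraries, and to 8477, 9848 and 9225 CPM outside it. *Cox7c* was at 358, 336 and 459 CPM in group 1 and 1098, 1551 and 1469 CPM outside. The complex I subunits summed to 4425, 3665 and 4931 CPM in group 1 and to 13290, 14839 and 13524 CPM outside it. The sham cells also differed by group, as those of group 1 had 2143 and 2609 CPM of cytochrome c oxidase subunits against 9848 and 9225 CPM in the other sham cells. The part of the larger share of group 1 in the lower sums of 2VO 1 was not tested. In other types these subunits summed to 4064, 6119 and 6306 CPM (oligodendrocytes), 3978, 7502 and 6650 CPM (precursors), 4367, 5231 and 5083 CPM (endothelial cells) and 3561, 3209 and 3082 CPM (microglia) in 2VO 1, sham 1 and sham 2. With astrocytes, 2VO 1 was thus lowest in 4 of the 5 types.

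The 13 mitochondrially encoded genes, which supply the core subunits of the same complexes, had another order. Of these 6 were above both sham libraries, 0 below both and 7 between them, with no unadjusted p under 0.05 (median 0.09). They summed to 48489 CPM (not TMM-scaled) in astrocytes of 2VO 1, 39745 in sham 1 and 48068 in sham 2. In group 1 they summed to 48963, 62675 and 59234 CPM, with 1 above both and 10 below both. Outside group 1 they summed to 47908, 37334 and 46184 CPM, with 9 above both and 0 below both. The other types differed more between the libraries, with 63180, 21627 and 27578 CPM in oligodendrocytes and 41593, 13571 and 25719 CPM in microglia. In each of oligodendrocytes, precursors, endothelial cells and microglia 13 of 13 genes were above both sham libraries, against 8 of 13 in astrocytes on this scale.

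All 79 cytosolic ribosomal protein genes were below both sham libraries, 59 of them at an unadjusted p under 0.05 (median −0.70). On the scale without TMM factors 75 were below both and 1 above both. *Rps2* (chr17:24718116-24721929, plus strand), of the small subunit, was at 224 CPM in 2VO 1, 660 in sham 1 and 657 in sham 2 (log2 fold change −1.55, SE 0.23, adjusted p = 0.363 by edgeR), and *Rpl9*, of the large subunit, at 398, 828 and 856 CPM (−1.08). In group 1 the order was turned. The 79 genes there summed to 20608 CPM in 2VO 1, 11448 in sham 1 and 16680 in sham 2, with 53 above both and 2 below both. Outside group 1 they summed to 40613, 49242 and 46774 CPM with 60 below both and 14 above both. *Rps2* was at 221, 195 and 172 CPM in group 1 and 253, 697 and 687 CPM outside it, the latter from 15, 749 and 807 UMIs. The fit outside group 1 called it (log2 fold change −1.62, adjusted p = 0.0244 by edgeR). Oligodendrocytes had 41933, 50316 and 53933 CPM of these genes, precursors 38328, 78865 and 56400 CPM and endothelial cells 94782, 94716 and 97001 CPM in 2VO 1, sham 1 and sham 2.

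**Figure D4:**
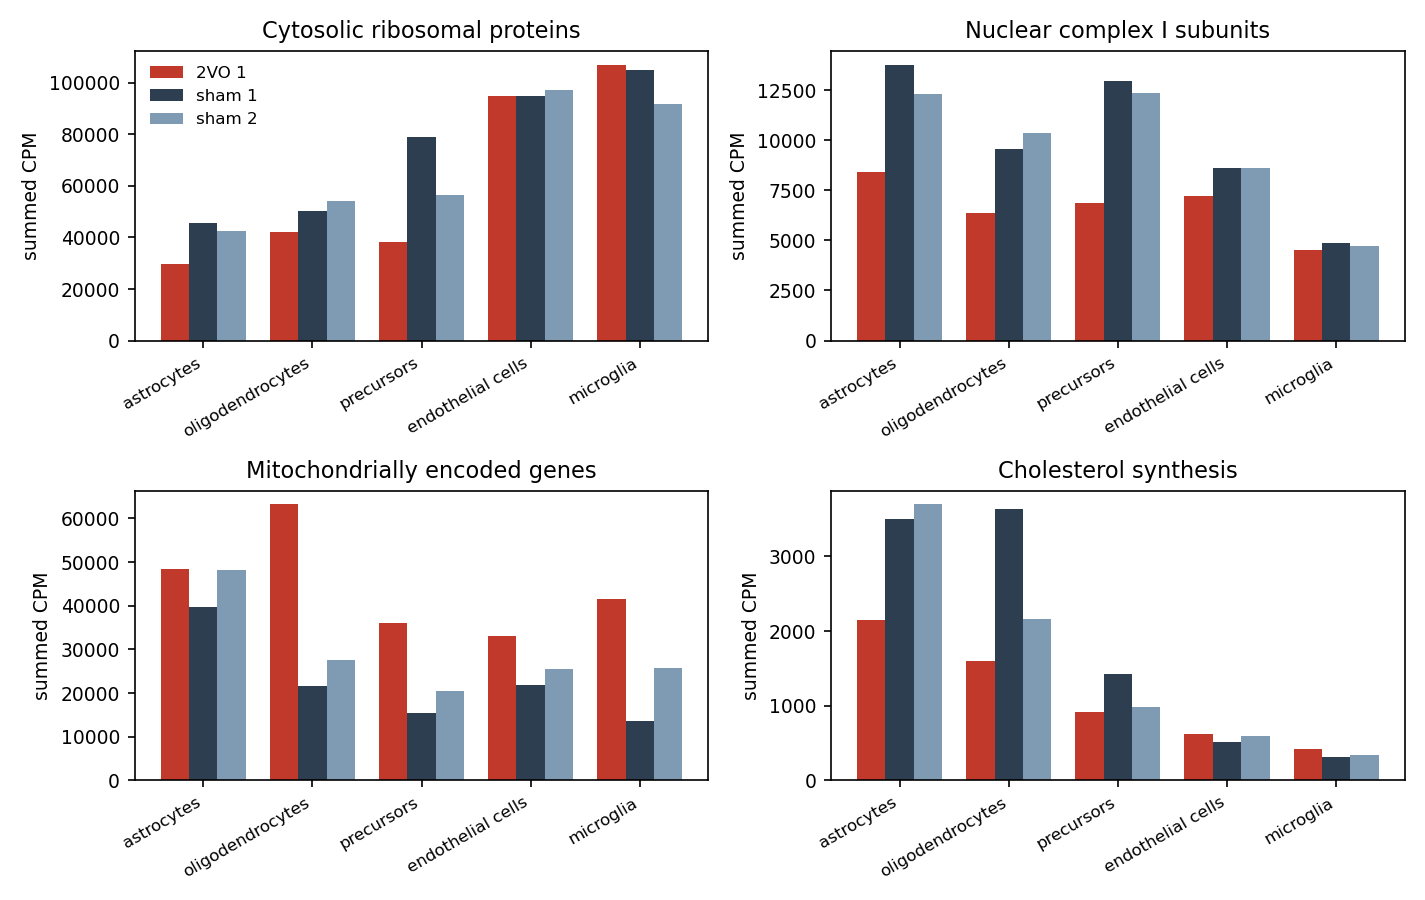
Summed CPM (not TMM-scaled) of 4 gene lists in 5 cell types, with bars for 2VO 1, sham 1 and sham 2. Ribosomal sums were lowest in 2VO 1 in astrocytes, oligodendrocytes and precursors, complex I sums were lowest in 2VO 1 in all 5 types, mitochondrially encoded sums were higher in 2VO 1 in the 4 other types and close to sham 2 in astrocytes (48489 against 48068 CPM), and cholesterol synthesis was lower in 2VO 1 in astrocytes, oligodendrocytes and precursors.

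**Figure D5:**
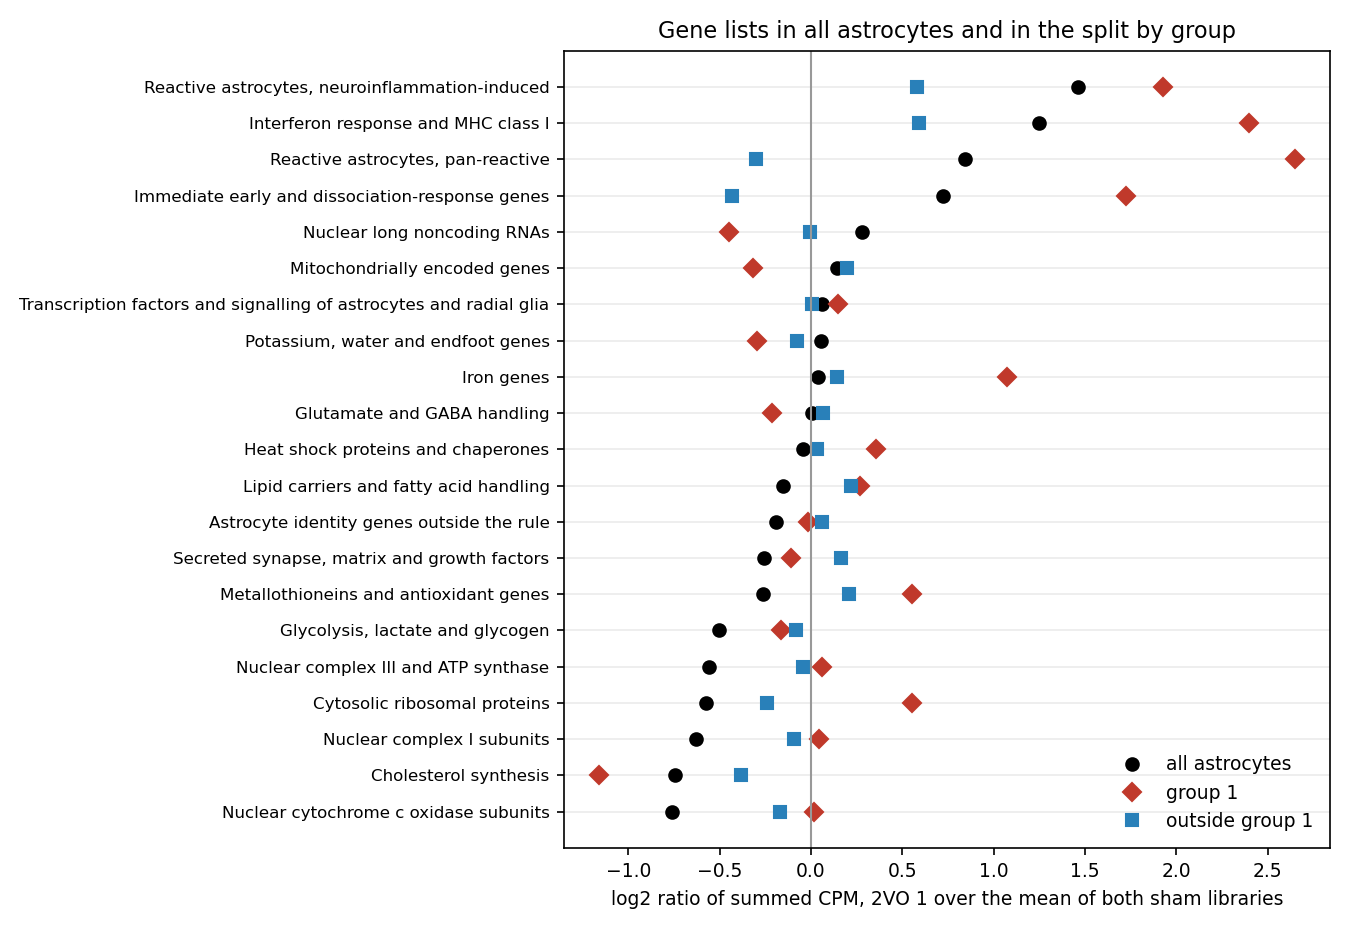
Log2 ratio of summed CPM, 2VO 1 over the mean of sham 1 and sham 2, for 21 gene lists in all astrocytes (circles), in group 1 (diamonds) and outside group 1 (squares). Ribosomal proteins were at −0.57 over all astrocytes, 0.55 in group 1 and −0.24 outside it, interferon-response genes at 1.25, 2.40 and 0.59, and cholesterol synthesis at −0.74, −1.16 and −0.38.

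Genes of astrocyte identity outside the rule lay more often below than above sham, by a margin that depended on the scaling. Of 49 genes 9 were above both sham libraries, 27 below both and 13 between (median −0.14, near the −0.11 of all genes). At an unadjusted p under 0.05 there were 0 higher and 5 lower. Without TMM factors 15 were above both and 18 below both, and without sham 2 as many were above 0 as below it (24 each). *Plpp3* was at 2895, 2939 and 3308 CPM (log2 fold change −0.11, SE 0.20, adjusted p = 0.865 by edgeR) and *Slc4a4* at 1469, 1783 and 1652 CPM (−0.22) in 2VO 1, sham 1 and sham 2. *Myoc* was at 65.1, 269 and 165 CPM (−1.73), *Hsd11b1* at 94.1, 228 and 315 CPM (−1.53) and *Cldn10* at 557, 801 and 988 CPM (−0.68). *Grin2c* (246, 183 and 292 CPM) and *Gja1* (1542, 1207 and 1638 CPM) lay between the sham libraries, and *Fgfr3* was at 528, 399 and 477 CPM.

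Genes that handle glutamate and GABA were spread on both sides: of 28 tested 8 were above both sham libraries and 12 below both (median −0.04). *Slc38a3*, which exports glutamine, was at 384 CPM in 2VO 1, 176 in sham 1 and 207 in sham 2 (log2 fold change 1.00, SE 0.23, adjusted p = 0.363 by edgeR). *Psph*, the last enzyme of serine synthesis, was at 86.9, 194 and 198 CPM (−1.18), and *Phgdh*, the first, at 398, 662 and 734 CPM (−0.81). Of 20 potassium, water and endfoot genes 3 were above both and 12 below both (median −0.20). *Lrrc8a*, a subunit of the volume-regulated anion channel, was at 145, 65.9 and 65.6 CPM (1.14), *Dtna*, a dystrobrevin that anchors endfoot proteins, at 702, 416 and 469 CPM (0.67), and *Slc9a3r1*, a scaffold gene, at 181, 376 and 358 CPM (−1.02) in 2VO 1, sham 1 and sham 2.

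Of 30 transcription factor and signalling genes of astrocytes and radial glia 13 were above both and 13 below both (median −0.01). *Hes5*, a Notch target, was at 152 CPM in 2VO 1, 447 in sham 1 and 338 in sham 2 (−1.37), *Hopx* at 927, 1695 and 1563 CPM (−0.81), *Sox2* at 297, 469 and 493 CPM (−0.70) and *Tcf4* at 1216, 785 and 756 CPM (0.66). *Hopx* was at 345, 372 and 550 CPM in group 1 and at 1739, 1803 and 1611 CPM outside it, so its values outside group 1 overlapped those of sham. Of 29 secreted factors 8 were above both and 17 below both (median −0.14, or −0.13 with the gene at 0 UMIs left out). The proteoglycan gene *Ncan* was at 130, 273 and 354 CPM (−1.27), the growth factor gene *Ptn* at 1969, 2895 and 3133 CPM (−0.61) and *Igfbp2*, which binds insulin-like growth factors, at 145, 356 and 256 CPM (−1.08).

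Of 30 metallothionein and antioxidant genes 22 were below both sham libraries and 7 above both (median −0.46). *Prdx2*, a peroxiredoxin gene, was at 210, 484 and 484 CPM (−1.20) and *Sod2*, the mitochondrial superoxide dismutase gene, at 86.9, 274 and 238 CPM (−1.56). The list summed to 15149 CPM in 2VO 1, 8561 in sham 1 and 12077 in sham 2 within group 1 and to 39279, 33395 and 34733 CPM outside it, highest in 2VO 1 on both sides, although over all astrocytes it was lowest in 2VO 1 (25994, 31032 and 31462 CPM). Of 20 heat shock and chaperone genes 7 were above both and 8 below both (median −0.02), with *Hspe1* at 239, 433 and 342 CPM (−0.70) and *Hspa8* at 557, 758 and 800 CPM (−0.48). Of 12 iron genes 4 were above both and 6 below both, with the zinc and iron importer gene *Slc39a14* at 65.1, 19.7 and 15.6 CPM (1.88) and *Steap3*, a ferrireductase gene, at 7.24, 38.5 and 28.9 CPM (−2.19). *Rnf182*, a ubiquitin ligase gene, had 1 UMI in 2VO 1 against 99 in sham 1 and 113 in sham 2 (7.24, 84.8 and 88.3 CPM), and *Oaz1*, ornithine decarboxylase antizyme, was at 261, 604 and 599 CPM (−1.21).

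The complement genes *C1qa* and *C1qb*, typical of microglia, were also examined. *C1qb* was at 253 CPM in 2VO 1, 4.28 in sham 1 and 55.5 in sham 2 (log2 fold change 3.05, SE 1.10, adjusted p = 0.392 by edgeR), from 35, 5 and 71 UMIs, and it was called without the filter on low counts (adjusted p = 1.3e-13 by edgeR) and without the highest 5% of doublet scores (adjusted p = 1.1e-07 by edgeR). Without sham 1 its log2 fold change was 2.23 and without sham 2 it was 5.88. Of its UMIs the 2 highest cells of each library held 28, 2 and 51. *C1qa* was at 181, 5.14 and 62.5 CPM (2.39, SE 1.21, adjusted p = 0.482 by edgeR). A UMI of *C1qb* was found in 26.5% of astrocytes of 2VO 1, 2.66% of sham 1 and 4.19% of sham 2, against 18.8%, 3.21% and 1.81% of oligodendrocytes, which are not known to make complement C1q. Median depths were 3504.5, 4787.5 and 5433 UMIs in astrocytes and 2308, 11657 and 8035 UMIs in oligodendrocytes of 2VO 1, sham 1 and sham 2. With every cell thinned to 1000 UMIs (no astrocyte was left out, and 9 oligodendrocytes of 2VO 1 were) the *C1qb* shares were 17.6% (exact 95% interval 6.76 to 34.5), 1.60% and 1.86% in astrocytes and 10.3% (8.39 to 12.5), 0.494% and 0.361% in oligodendrocytes. The intervals of the 2 types overlapped in 2VO 1. They cover counting error over the cells of 1 library only, and a difference between the types was not tested. Thinned *C1qa* shares were 5.88%, 0.532% and 2.33% in astrocytes of 2VO 1, sham 1 and sham 2. Members past a limit of 4 microglial UMIs per 10000 were 8 of 34, 1 of 188 and 10 of 215 in 2VO 1, sham 1 and sham 2.

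To see where astrocytes differed from the rest of the same libraries, the ratio of the 2VO over sham folds in astrocytes and in all other kept cells was tested with edgeR, with the library as a term and 1 residual degree of freedom. Of 15633 genes 23 were called (0.147%), 18 with a ratio above 1 and 5 below, and 2 of the 18 (*Aqp4* and *Flt1*) were genes of the rule and are not read. On the lower side *C4b* had the smallest p. It stood at 287 TMM-scaled CPM in astrocytes of 2VO 1, 96.0 in sham 1 and 175 in sham 2, and at 134, 6.32 and 12.1 CPM in all other cells, so that the fold was smaller in astrocytes (log2 ratio −2.79, SE 0.34, adjusted p = 3.0e-05 by edgeR). *C4b* was called in all 5 fits made of this difference, with a ratio of −3.33 against precursors alone and −3.53 against oligodendrocytes alone. *Igfbp2* was at 133, 353 and 252 CPM in astrocytes and 1108, 706 and 416 CPM in the other cells (−2.19, SE 0.37), and *Ncan* at 120, 271 and 348 CPM against 39.6, 25.2 and 20.8 CPM (−2.15, SE 0.40), both lowest in 2VO 1 in astrocytes and highest in 2VO 1 elsewhere. *Zfp36l2*, an RNA-binding protein gene, followed the same order with 86.6, 182 and 241 CPM against 101, 47.3 and 62.1 CPM (−2.17). With DESeq2's size factors in place of TMM factors *Igfbp2*, *Ncan* and *Zfp36l2* were not called.

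On the other side *Fosb* stood at 167, 2.55 and 9.23 CPM in astrocytes and 387, 42.1 and 242 CPM in the other cells (log2 ratio 3.35, SE 0.49, adjusted p = 0.00081 by edgeR), and was also called against precursors (4.24) but not against oligodendrocytes (2.23, adjusted p = 0.0668 by edgeR). Its adjusted p ran between 1.0e-05 and 0.0668 over the 5 fits. *Serpina3n* stood at 320, 14.4 and 10.8 CPM in astrocytes and 23.2, 4.05 and 5.32 CPM elsewhere (2.36, SE 0.51, adjusted p = 0.0457 by edgeR, within a range of 0.00022 to 0.378 over the 5 fits). *Mal* (3.27), *Sox10* (4.97) and *Ugt8a* (4.55), genes of myelin and its cells, were also called, *Mal* with −1.02 against precursors. The 10 oligodendrocyte markers summed to 10675, 36248 and 18092 CPM in the other cells of 2VO 1, sham 1 and sham 2, and their part in these calls was not tested. Oligodendrocytes were 902 of 3912, 1618 of 5109 and 1107 of 5126 kept cells, with medians of 2308, 11657 and 8035 UMIs, so both their number and their depth differed between the libraries.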

How the data were processed

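Hippocampal cells of 1 2VO mouse and 2 sham mice were analysed, 1 droplet library per mouse. The authors aligned the reads to mm10 with Cell Ranger and deposited, for the 3 libraries analysed, the UMI count of each gene in each barcode. Barcodes with at least 650 genes were kept (3912 in 2VO 1, 5109 in sham 1 and 5126 in sham 2), and cell types were set by limits on marker counts. The study's own annotation was not used here. The members, the 22 gene lists and the tests were chosen with earlier results of these data known.

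Counts were summed over the astrocytes of each library and tested with edgeR 4.0.16 (TMM factors, filterByExpr, quasi-likelihood test, Benjamini-Hochberg adjustment over all tested genes), checked on simulated counts. Calls needed an adjusted p below 0.05 together with a fold above 1.5. The interaction had the library as a term. DESeq2 1.42.0 was an alternative. Clusters were found with scanpy 1.11.5 and leidenalg 0.10.2 (1000 variable genes, 10 principal components, 15 neighbours, resolution 0.5). CPM outside the fits carry no TMM factors.

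Named were the genes of the rule and *Plpp3*, those the study's text names for astrocytes, in each direction the 5 genes of smallest p with at least 50 counts, the 2 with the smallest p of each list, the 15 with the largest fold over other cells, and 5 per direction of the interaction. Of these, 2 genes are not reported here, and they stay in the fits and sums. *Phgdh*, *Dtna*, *Sox2*, *Tcf4*, *Msmo1*, *Ifit3*, *Isg15*, *Cd44*, *Osmr*, *Aspg*, *Vim* and the leading genes of the groups were named after their values were seen. Positions of genes follow GENCODE for GRCm38, and upstream sequences follow RefSeq for GRCm38.p6. Other normalizations, filters, depths, doublet removal and limits were tried, and each sham library was left out in turn. The removal of the highest 5% of doublet scores and the split by group 1 were chosen after seeing the data.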

Additional observations from a re-analysis of the deposited data

Results flagged for a closer look

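The test of the difference between the 2VO change in astrocytes and that in all other kept cells of the same libraries picked out 21 genes outside the rule, of which 20 are given here, each as the log2 ratio of the folds. Grouped after the calls were seen, with no test of the grouping, genes known from myelin and the oligodendrocyte lineage were *Mal* 3.27, *Sox10* 4.97, *Ugt8a* 4.55, *Pllp* 4.37, *Stmn4* 3.62, *Trf* 2.63, *Cldn11* 3.56 and *Sept4* 2.36. In the cells they were compared with, the oligodendrocyte markers summed to 10675 CPM in 2VO 1, 36248 in sham 1 and 18092 in sham 2.

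Genes known from reactivity, stress or interferon with a larger fold in astrocytes were *Fosb* 3.35, *Sgk1* 2.55, *Serpina3n* 2.36 and *Iigp1* 6.15. None of these was called against oligodendrocytes alone, and *Serpina3n*, *Sgk1* and *Iigp1* were not called with DESeq2's size factors. *Sgk1* and *Iigp1* were also not called against precursors. *Iigp1* had 8 UMIs in the astrocytes of 2VO 1, 1 in sham 1 and 0 in sham 2, so its fitted value is no measure of size. The globin gene *Hbb-bs* was at 2.26, and with precursors in place of all other cells its ratio was −3.40 and also called. *Hbb-bs* was not called against oligodendrocytes alone or with DESeq2's size factors. *Mlc1* (1.93) and *Slc25a18* (2.00), genes of astrocyte identity and glutamate transport, were lowest in 2VO 1 both in astrocytes and in the other cells. *Mlc1* was at 473, 681 and 540 TMM-scaled CPM in astrocytes and 3.84, 17.0 and 20.9 CPM in the other cells of 2VO 1, sham 1 and sham 2. *Slc25a18* was at 287 TMM-scaled CPM in 2VO 1, 325 in sham 1 and 369 in sham 2 in astrocytes, and at 1.86, 6.67 and 12.2 CPM in the other cells. Neither was called against precursors or oligodendrocytes alone or with DESeq2's size factors, and against oligodendrocytes the ratios were −0.68 (*Mlc1*) and −0.97 (*Slc25a18*).

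Below 0 were *C4b* −2.79, *Igfbp2* −2.19, *Zfp36l2* −2.17, *Ncan* −2.15 and *Tmem237* with a fitted value of −13.56. With DESeq2's size factors *Igfbp2*, *Zfp36l2* and *Ncan* were not called, and *Igfbp2* and *Zfp36l2* were also not called against precursors. *Tmem237* had 0 UMIs in the astrocytes of 2VO 1, 76 in sham 1 and 41 in sham 2, so its fitted value is no measure of size. Against a floor of 3 UMIs in 2VO 1 (22.8 CPM), it was at least 2.06-fold lower in astrocytes of 2VO 1 than in sham.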

How the results depend on the processing

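The comparison of 2VO 1 with sham in astrocytes called 0 genes with edgeR and TMM factors, and the count depended on the setting. It was 1 with DESeq2's size factors in edgeR, 6 with DESeq2, 343 with no filter on low counts, 1 with at least 200 genes per barcode, 5 without the cells Scrublet marked, 2 with limits on markers of other types, 11 after thinning to 1000 UMIs, 94 without the highest 5% of doublet scores, 8 in group 1 only and 4 outside group 1 only. The difference from other cells gave 23 genes, and 9 with precursors, 38 with oligodendrocytes and 8 with DESeq2's size factors. *Serpina3n* was called in 7 of 11 settings, *Neat1* and *Fabp7* in 6, *Fosb* and *Rps2* in 4, *Cox7c*, *Ctsd* and *Dbi* in 3. The cause of these changes was not tested.

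The share of astrocytes was 5.02% in sham 1 and 4.79% in sham 2 with at least 200 genes, and 3.07% and 3.64% after thinning before the rule.

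Among 80 named genes 32 values changed sign. In group 1 only these were *Cox8a* 0.38, *Rps2* 0.18, *Dbi* 0.53, *Rpl9* 0.23, *mt-Nd3* −0.14, *Grin2c* −0.74, *Fgfr3* −0.19 and *Gja1* −0.20. Outside group 1 they were *Slc38a3* −0.46, *Gfap* −0.75, *Slc6a11* 0.035, *Fgfr3* −0.077, *Serpina3n* −6.24, *Ggta1* −6.18, *Ifit3* −6.60 and *Cd44* −6.00, the last 4 with 0 UMIs in 2VO 1, so fitted values without a size. With limits on other types *mt-Nd3* was at −0.016 and *Slc6a11* at 0.098. After thinning *Grin2c* was at −0.89, *Slc6a11* at 0.15, *Agt* at 0.15. With no filter on low counts *Gfap* was at −0.096 and *Grin2c* at −0.055, with at least 200 genes *Grin2c* was at −0.033, without the highest doublet scores *Gfap* was at −0.017 and *Grin2c* at −0.022, and without the cells Scrublet marked *Gfap* was at −0.0079. Leaving out a sham library gave −0.15 to 0.030 for *Plpp3*, −0.031 to 0.14 for *Gfap*, −0.21 to 0.48 for *Grin2c*, −0.52 to 0.011 for *Agt* and −0.050 to 0.40 for *Gja1*. With precursors, the differences from other cells were *Mal* −1.02, *Igfbp2* 0.53, *Trf* −0.080 and *Hbb-bs* −3.40, and with oligodendrocytes *Mlc1* −0.68 and *Slc25a18* −0.97. *Ptgds*, named for group 1, was at −1.13 over all astrocytes, 2.81 in group 1 and 0.56 without sham 2.

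No paired analysis was possible because replicate number 1 is the one number analysed in both groups. Leaving out a sham library left the difference from other cells without residual degrees of freedom, so that count was not run.

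Depth limits these values: 34 astrocytes with 131762 UMIs stand for 2VO 1, and 1 animal stands for the condition.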
